A study of Mus musculus with 45 samples.

Results

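Inhibitory coreceptors set a limit on how strongly a B cell answers antigen. This account covers 8 genes, the receptors Cd22, Siglecg, Fcgr2b, Cd72, Pirb and Cd5 and the phosphatases Ptpn6 and Inpp5d, taken by gene symbol from tables of 28196 genes. Each member had 1 row in each of the 2 deposited tables. All 8 could be tested in every comparison. The receptors carry inhibitory tyrosine motifs in their cytoplasmic tails, apart from Cd5, whose tail has an atypical one. Once the kinase LYN has phosphorylated such motifs, CD22, Siglec-G, CD72 and PIR-B recruit SHP-1, the tyrosine phosphatase encoded by Ptpn6. FcγRIIB, the product of Fcgr2b, recruits SHIP-1, the lipid phosphatase encoded by Inpp5d. SHP-1 removes phosphate from signalling proteins near the B cell receptor, and SHIP-1 removes it from the membrane lipid made by PI3 kinase. In antibody-secreting cells FcγRIIB is also known as a receptor through which immune complexes limit survival.

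The RNA came from splenic B cells of C57BL/6 mice, read in 45 libraries that form 15 groups of 3. A kit that removes CD43-bearing cells enriched the B2 cells to over 95% purity by the labels' protocol. In the TLR system cells sat on L cell feeders that carry CD40L and were given 5 µg/mL LPS together with 50 ng/mL of IL-4 and of IL-5. In the BCR system 12 µg/mL of F(ab')2 antibody against IgM and IgG replaced the LPS. Cells were taken off the feeders on day 2. IL-6 (10 ng/mL), APRIL (100 ng/mL), amino acids and lipids were supplied once day 4 was reached. The LPS culture is known only by its label. Wild type groups were B cells at day 0, TLR and BCR cultures at days 4, 7 and 10, and, for LPS, days 4 and 7. The mutant, Prdm1Δex1A, is written dEx1A here and lacks exon 1A of Prdm1, which encodes Blimp-1, a repressor that drives plasma cell differentiation. It was cultured in all 3 systems to days 4 and 7, with no day 0 group. By label, day 10 cells are plasma cells and earlier cultured cells plasmablasts. Wild type LPS and all dEx1A mice are labelled as females of 9 weeks, and all other wild type mice as males of 7 weeks, although the protocol text speaks of matched mice. Genotype therefore cannot be told apart from sex and age in the TLR and BCR cultures, and can be in LPS.

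Levels are the authors' log2 variance-stabilised values, a scale close to log2 of normalised reads for well expressed genes and compressed for weak ones. A difference is given in log2 units with its standard error from limma, and was called where its p, adjusted over all genes tested by the Benjamini-Hochberg method, was under 0.05. Whether replicate libraries stem from different mice is not stated. The p-values therefore measure spread among libraries only, which may be technical. Libraries held 15.09 to 35.56 M recovered reads (M, mega), the median being 23.24 M. The 15 libraries of wild type LPS and of dEx1A at day 7 lay below 20 M reads, and these also favoured GC-rich transcripts. Their GC offset, the median deviation of the most GC-rich 25% of 8062 genes less that of the most GC-poor 25%, ran from 0.68 to 1.56 against −1.79 to 0.56 in the other 30. The altered gene Prdm1 read 6.01 to 6.95 at day 0 and 13.43 to 13.51 in wild type TLR at day 10. In dEx1A it was lower than in wild type in all but the TLR culture at day 4, with differences of −2.68 to −1.38, but its row covers the whole gene and does not check the deletion. Summed reads of 7 B cell markers fell from 10700 to 11200 RPM (recovered reads scaled by the library's total, in parts per M reads) at day 0 to 826 to 1510 at day 10, and those of 5 plasma cell markers went from 632 to 1020 up to 13100 to 36200. Summed reads of 13 macrophage markers were 269 to 330 RPM at day 0 and 10000, 11800 and 1020 in the BCR libraries of day 10. Bulk values cannot tell fewer cells of a type from less RNA per cell.

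Per length, Cd22 and Ptpn6 stood highest among the 8 in resting B cells. Cd22 held 302 to 339 RPKM (RPM per kilobase of merged exons) and Ptpn6 247 to 314, ranges that overlap. Siglecg followed with 159 to 172 and Cd72 with 119 to 125, each apart from its neighbours in this order. Inpp5d held 38.7 to 45.3 and Fcgr2b 37.0 to 38.5, so that SHIP-1 and the receptor that recruits it lay side by side without overlap. Pirb held 25.6 to 29.2. Cd5, which marks T cells and the B1 subset that the CD43 step removes, held 0.32 to 0.47, or 34 to 51 reads a library. T cell markers were present at a low level in the same libraries, with 38.3 to 47.4 RPM over 7 genes. These were uneven on the log2 scale, Lck reading 9.17 to 9.27 against 4.69 to 5.35 for Cd3e and 3.90 to 5.29 for Cd8a. The part of these markers in the Cd5 signal was not tested. In the BCR culture at day 10 Pirb held 54.1, 55.4 and 6.65 RPKM in replicates 1, 2 and 3. Cd22 held 12.5, 34.2 and 11.2 there, and Siglecg 11.6, 21.4 and 10.8. Pirb thus stood above both in replicates 1 and 2, and below both in replicate 3, as at day 0. Macrophage markers summed to 10000, 11800 and 1020 RPM in these libraries, and their part was not tested.

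All 8 members fell between day 0 and day 4 in both feeder cultures. The median difference over the 8 was −2.78 in TLR and −3.28 in BCR, against 0.01 and 0.00 over all genes tested. Among all genes 48.5% passed in TLR, with 23.5% lower, and 50.7% passed in BCR, with 24.5% lower. The 5 receptors other than Cd5 changed by −6.08 to −1.87 in TLR and by −5.04 to −3.12 in BCR, while Inpp5d, the gene of SHIP-1, changed by −0.99 and −0.73. The 2 comparisons share the day 0 libraries. All 7 B cell markers fell as well in each culture, with medians of −1.98 and −1.67. In the plot of the wild type course the day 4 points of the TLR and BCR cultures lie at the bottom of the panels of Pirb, Fcgr2b and Cd72, whereas the LPS points of Fcgr2b do not.

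**Figure D1:**
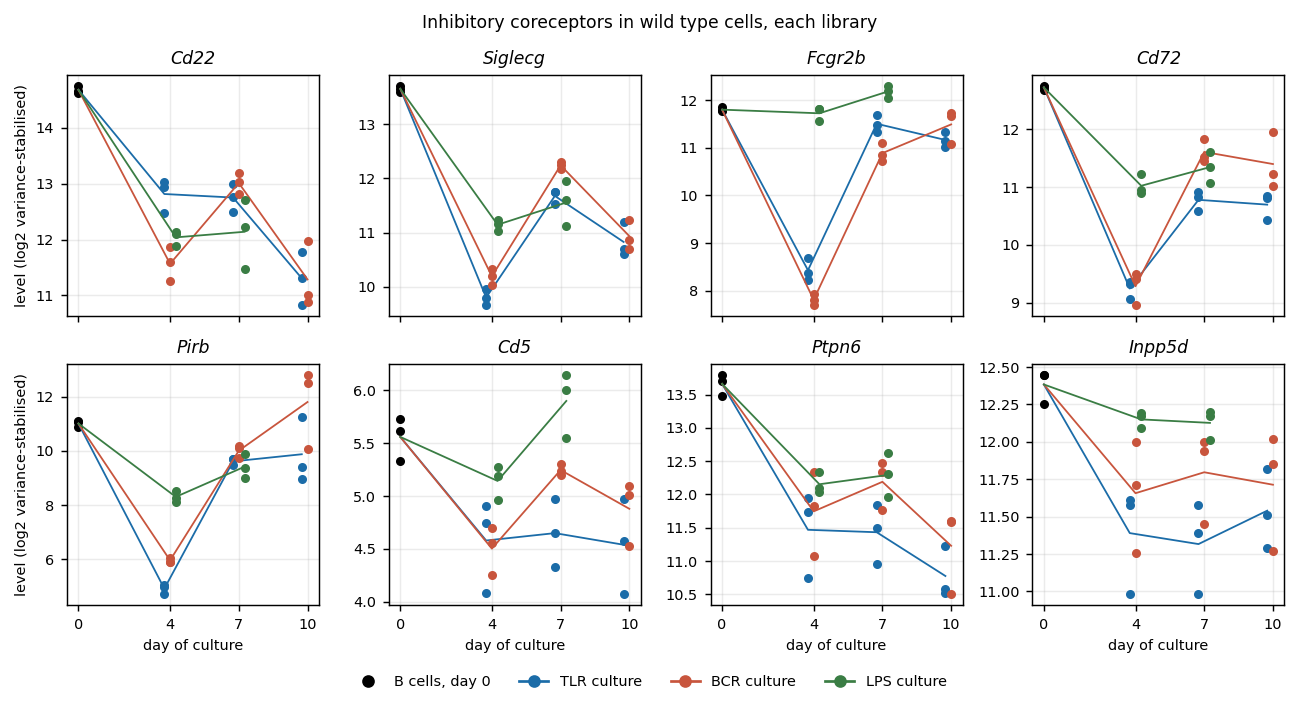
Level of each coreceptor gene in wild type libraries on the log2 variance-stabilised scale (y axis, its range set per panel) against day of culture (x axis); points are libraries and lines join group means. Pirb in TLR goes from 10.87 to 11.08 at day 0 to 4.71 to 5.07 at day 4 and 9.47 to 9.68 at day 7, while Fcgr2b in LPS stays between 11.56 and 12.31.

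Pirb encodes PIR-B, a receptor for MHC class I on B cells and myeloid cells. Its levels at day 0 were 11.06, 11.08 and 10.87, and at day 4 they were 5.07, 4.99 and 4.71 in TLR and 5.92, 6.06 and 5.92 in BCR. The day 4 libraries lay far below the day 0 ones without overlap, at 22 to 34 reads in TLR and 59 to 82 in BCR. The difference was −6.08 ± 0.55 in TLR (adjusted p = 4.87e-08) and −5.04 ± 0.55 in BCR (adjusted p = 4.85e-07). Of the 13 macrophage markers 9 fell over the same step in TLR (median −2.58) and 8 in BCR (median −2.27), from sums of 269 to 330 RPM to 79.3 to 95.8 and 89.8 to 134, and their part in the fall was not tested. By day 7 Pirb had risen to 9.47, 9.68 and 9.68 in TLR and 10.11, 10.16 and 9.74 in BCR, gains of 4.69 ± 0.55 and 4.04 ± 0.55 that left all 6 libraries below those of day 0. At day 10 the libraries of a group parted. TLR held 8.95, 11.25 and 9.42, and BCR held 12.81, 12.50 and 10.08. The macrophage sums of the same libraries were 204, 2320 and 376 RPM in TLR and 10000, 11800 and 1020 in BCR. In both groups the libraries high in Pirb were those high in macrophage markers. Pirb rose from day 7 to day 10 in BCR by 1.79 ± 0.55 (adjusted p = 0.0318), with overlapping groups. With BCR replicates 1 and 2 of day 10 both left out the difference was 0.08. The call was also lost on leaving out any 1 of the 3 day 7 libraries (1.66 to 1.87), replicate 1 of day 10 (1.29) or replicate 2 (1.44), and when scaled to total recovered reads (1.41). Against day 0 it did not pass at day 10 in TLR (−1.13 ± 0.55) or BCR (0.79 ± 0.55), but in TLR was −1.82 and passed without replicate 2 and was −2.6 and passed when scaled to total recovered reads, and in BCR was 1.65 and passed without BCR replicate 3. Pirb shares sequence with the activating Pira genes beside it on chromosome 7, so reads may be divided uncertainly between them. Pira2, the 1 gene tested of 8 listed Pira symbols, read 9.31 to 9.57 on day 0, no more than 4.40 in TLR at day 4 and 11.01, 10.93 and 8.95 in BCR at day 10.

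**Figure D2:**
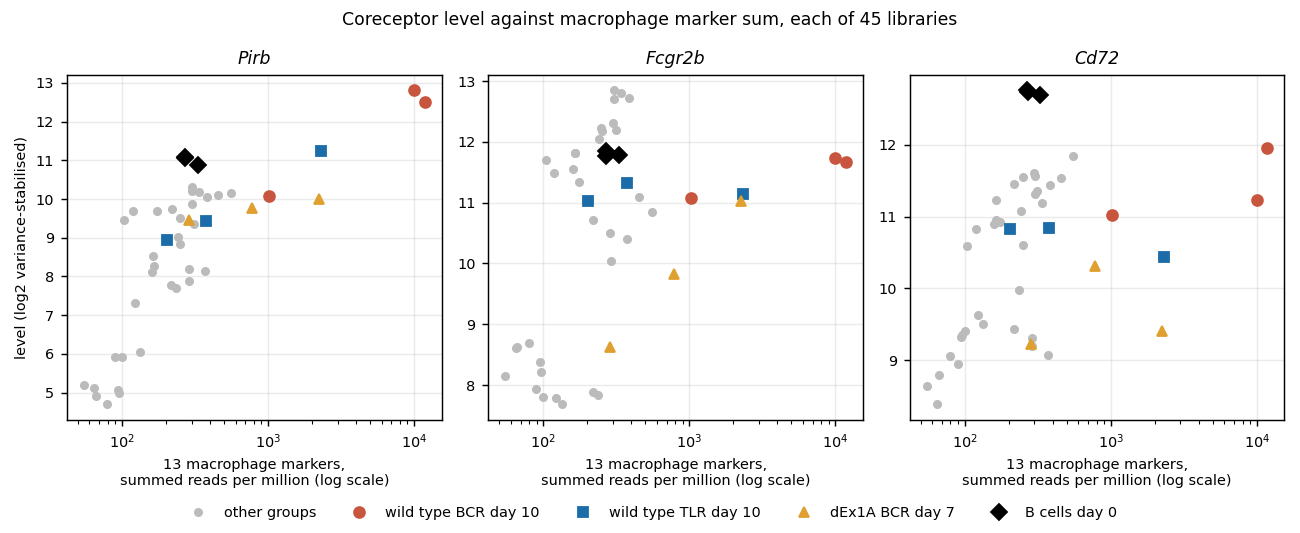
Level of Pirb, Fcgr2b and Cd72 (y axes, log2 variance-stabilised) against the summed RPM of 13 macrophage markers (x axis, log scale), 1 point per library for all 45. The 2 BCR day 10 libraries at 10000 and 11800 hold the highest Pirb, 12.81 and 12.50, while day 0 libraries reach 10.87 to 11.08 at sums of 269 to 330.

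The promoter windows of 3 receptors that fell together at day 4 are shown so that their letters can be compared. They run from 250 bases before to 50 after the RefSeq start in GRCm38.p6, on the strand of the gene. Pirb lies at chr7:3720333-3720632 on the minus strand, Cd72 at chr4:43454577-43454876 on the minus strand and Fcgr2b at chr1:170976022-170976321 on the minus strand. Capitals mark the letters GAGGAA on either strand, the core of sites for the ETS factor PU.1 of B and myeloid cells.
Pirb: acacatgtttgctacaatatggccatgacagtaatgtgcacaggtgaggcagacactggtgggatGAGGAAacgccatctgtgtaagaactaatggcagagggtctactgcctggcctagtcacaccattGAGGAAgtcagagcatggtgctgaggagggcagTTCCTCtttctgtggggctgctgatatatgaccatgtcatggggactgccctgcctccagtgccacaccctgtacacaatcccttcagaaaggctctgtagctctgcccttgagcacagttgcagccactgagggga
Cd72: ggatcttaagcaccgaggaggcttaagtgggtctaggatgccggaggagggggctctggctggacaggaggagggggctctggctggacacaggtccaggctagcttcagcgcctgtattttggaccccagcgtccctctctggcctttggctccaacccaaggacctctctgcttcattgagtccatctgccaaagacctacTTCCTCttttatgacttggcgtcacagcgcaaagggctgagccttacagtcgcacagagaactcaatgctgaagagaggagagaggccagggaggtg
Fcgr2b: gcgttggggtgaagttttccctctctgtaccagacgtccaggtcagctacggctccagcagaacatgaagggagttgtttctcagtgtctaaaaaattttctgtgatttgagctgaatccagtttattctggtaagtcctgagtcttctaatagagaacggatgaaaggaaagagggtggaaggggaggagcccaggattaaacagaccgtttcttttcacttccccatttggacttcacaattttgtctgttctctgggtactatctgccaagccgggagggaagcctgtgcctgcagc
GAGGAA occurs 3 times in the Pirb window, starting at −185, −120 and −87 counted from the start at +1, once in Cd72 at −47, and not in Fcgr2b. It was found in 5 of the 8 members' windows, the others being Siglecg, Cd5 and Inpp5d, and in 28.1% of 32544 windows of all genes. The octamer ATGCAAAT was in no member's window and in 1.75% of all. GNGAAAG, the core of Blimp-1 sites, was in the Siglecg window alone of the 8 and in 22.7% of all. The STAT6 motif, TTC and GAA with 4 bases between, was in the Inpp5d window alone and in 6.98% of all. Siglecg has a further window, not counted among the members here, which holds no match to any of these motifs. The 3 windows shown hold none of these other motifs. A match describes letters and does not show binding.

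Cd22 and Siglecg encode receptors for sialic acid. CD22 binds mainly the sugars that ST6GAL1 makes, and in mice Siglec-G is known for its hold on B1 cells. Cd22 went from 14.76, 14.62 and 14.67 at day 0 to 13.03, 12.94 and 12.48 in TLR and to 11.59, 11.86 and 11.25 in BCR at day 4. The BCR libraries lay below all TLR libraries. The difference from day 0 was −1.87 ± 0.27 in TLR (adjusted p = 1.74e-05) and −3.12 ± 0.27 in BCR (adjusted p = 3.01e-08), and the direct difference between the cultures was 1.25 ± 0.27 (adjusted p = 0.00695). At day 7 Cd22 read 12.50, 12.99 and 12.77 in TLR and 12.81, 13.04 and 13.19 in BCR, with overlapping ranges. It had risen by 1.45 ± 0.27 in BCR and changed by −0.06 ± 0.27 in TLR, a step that did not differ between cultures past the threshold (−1.51 ± 0.38, adjusted p = 0.0559). That difference in step passed without TLR replicate 3 of day 4 (−1.68) or BCR replicate 2 of day 4 (−1.66), and was −1.40 and passed after correction for GC content and length. By day 10 Cd22 had fallen again in both, to 11.78, 10.82 and 11.32 in TLR and 10.88, 11.98 and 11.00 in BCR, by 1.45 ± 0.27 and 1.73 ± 0.27.

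Siglecg went from 13.71, 13.64 and 13.60 at day 0 to 9.96, 9.80 and 9.66 in TLR and 10.21, 10.34 and 10.04 in BCR at day 4. These were differences of −3.84 ± 0.16 (adjusted p = 2.05e-12) and −3.45 ± 0.16 (adjusted p = 7.29e-12), and no day 4 library came within 3 units of a day 0 one. It read 11.53, 11.75 and 11.75 in TLR and 12.17, 12.31 and 12.24 in BCR at day 7. The rise was 1.87 ± 0.16 in TLR and 2.04 ± 0.16 in BCR. At day 10 it was lower again, at 11.19, 10.60 and 10.70 in TLR and 10.70, 11.24 and 10.87 in BCR, by 0.85 ± 0.16 and 1.3 ± 0.16. Both sialic acid receptors thus stood far below day 0 at day 10, with differences of −3.38 ± 0.27 in TLR and −3.40 ± 0.27 in BCR for Cd22, and of −2.82 ± 0.16 and −2.71 ± 0.16 for Siglecg. When only the groups compared entered the fit, the 4 falls from day 7 to day 10 kept their size but no longer passed, with adjusted p from 0.0522 to 0.077.

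Fcgr2b, the only inhibitory Fc receptor for IgG in the mouse, followed another course. It read 11.77, 11.85 and 11.79 at day 0, 8.38, 8.22 and 8.69 in TLR at day 4 and 7.81, 7.69 and 7.93 in BCR. The groups did not overlap, with differences of −3.37 ± 0.17 (adjusted p = 2.87e-11) and −3.99 ± 0.17 (adjusted p = 3.16e-12). At day 7 it was back at 11.70, 11.34 and 11.48 in TLR and 11.10, 10.85 and 10.72 in BCR, a rise of 3.08 ± 0.17 in each. At day 10 TLR held 11.02, 11.15 and 11.33 and BCR 11.73, 11.67 and 11.08, so that every wild type feeder culture library of days 7 and 10 lay above every one of day 4. The level at day 10 was 0.64 ± 0.17 below day 0 in TLR (adjusted p = 0.00542) and 0.31 ± 0.17 below in BCR, which did not pass (adjusted p = 0.141) but passed at −0.52 after GC and length correction and at −0.72 without BCR replicates 1 and 2. Fcgr2b rose from day 7 to day 10 in BCR by 0.60 ± 0.17 (adjusted p = 0.0222). The call was lost on leaving out day 7 replicate 2 (0.58) or 3 (0.52), or day 10 replicate 1 (0.48) or 2 (0.51), and without both of the last, those high in macrophage markers, the difference was 0.19. Scaled to total recovered reads it was 0.22 and did not pass.

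Cd72 encodes a C-type lectin whose ligand on other cells is CD100, the product of Sema4d. It went from 12.76, 12.73 and 12.69 at day 0 to 9.32, 9.35 and 9.06 in TLR and 9.40, 9.5 and 8.95 in BCR at day 4. The cultures overlapped at that day and lay more than 3 units below day 0, with differences of −3.48 ± 0.21 (adjusted p = 2.15e-10) and −3.44 ± 0.21 (adjusted p = 2.35e-10). At day 7 Cd72 read 10.59, 10.92 and 10.83 in TLR and 11.53, 11.84 and 11.46 in BCR, up by 1.54 ± 0.21 and 2.33 ± 0.21. At day 10 it read 10.82, 10.43 and 10.84 in TLR and 11.23, 11.95 and 11.02 in BCR, differences of −0.08 ± 0.21 and −0.21 ± 0.21 from day 7 that did not pass. It ended 2.03 ± 0.21 below day 0 in TLR and 1.33 ± 0.21 below in BCR.

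Ptpn6, the gene of SHP-1, read 13.70, 13.48 and 13.80 at day 0, 11.73, 11.94 and 10.74 in TLR at day 4 and 11.83, 12.33 and 11.08 in BCR. Replicate 3 was the lowest in both cultures, and its GC offsets there, −1.40 and −1.37, were also the lowest of their groups. The difference was −2.19 ± 0.37 in TLR and −1.91 ± 0.37 in BCR. Ptpn6 did not pass from day 4 to day 7 in TLR (−0.04 ± 0.37) or BCR (0.44 ± 0.37), nor from day 7 to day 10 in TLR (−0.66 ± 0.37) or BCR (−0.96 ± 0.37). After GC and length correction the last 2 were −0.89 and −1.0 and passed. Without BCR replicates 1 and 2 of day 10 the BCR one was −1.69 and passed. At day 10 Ptpn6 differed from day 0 by −2.88 ± 0.37 in TLR and −2.43 ± 0.37 in BCR.

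Inpp5d, the gene of SHIP-1, stayed between 10.98 and 12.02 in all 18 TLR and BCR libraries of wild type cells, against 12.45, 12.25 and 12.45 at day 0. It fell to day 4 by 0.99 ± 0.24 in TLR (adjusted p = 0.00251) and 0.73 ± 0.24 in BCR (adjusted p = 0.0186). The BCR call was lost without day 0 replicate 1 or 3 (−0.69 in each case) or BCR replicate 3 (−0.53). No later step of Inpp5d passed. At day 10 it was 0.84 ± 0.24 below day 0 in TLR and 0.67 ± 0.24 below in BCR. That BCR difference did not pass without day 0 replicate 1 or 3 (−0.64 each) or BCR replicate 3 (−0.45). Cd5 had 2 to 100 reads in any library. It fell to day 4 by 0.98 ± 0.26 in TLR and 1.06 ± 0.26 in BCR, neither of which passed after GC and length correction (−0.57 in each). Its rise by 0.74 ± 0.26 to day 7 in BCR (adjusted p = 0.0385) did not pass without day 4 replicate 1 (0.77) or 3 (0.62), nor without any 1 of the day 7 libraries (0.72 to 0.77). Cd5 ended 1.02 ± 0.26 below day 0 in TLR and 0.68 ± 0.26 below in BCR, and the BCR call was lost without day 0 replicate 1 (−0.59) or 2 (−0.65) or BCR replicate 3 (−0.51).

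In counts, 4 of the 8 members rose from day 4 to day 7 in TLR and 6 in BCR. Of all genes 36.5% and 30.6% passed there, and 17.8% and 15.3% of all genes passed as higher. From day 7 to day 10, 2 fell in TLR, where 8.22% of genes passed. In BCR 2 fell and 2 rose, where 16.7% passed. Against day 0, 7 members were lower at day 10 in TLR and 6 in BCR. Of all genes 46.1% and 52.4% passed there, and 23.2% and 22.9% of all genes passed as lower. Scaling to total recovered reads moved all genes together by −0.89 log2 units from day 4 to day 7 in TLR, by −0.44 in BCR, and by −1.46 and −0.84 from day 0 to day 10. On that scale Siglecg, Fcgr2b and Pirb still rose to day 7 in TLR, the rise of Cd72 was 0.68 and no longer passed, and Cd22 (−0.95) and Inpp5d (−0.96) fell.

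The TLR and BCR cultures were compared directly at each day, since they differ in the signal given at day 0. At day 4, 2 of 8 members differed, where 7.66% of all genes passed. These were Cd22, given above, and Fcgr2b, which was 0.62 ± 0.17 higher in TLR (adjusted p = 0.0322). The Fcgr2b call was lost without TLR replicate 1 (0.64) or 3 (0.49) or any 1 of the BCR libraries (0.56 to 0.68), and in voom (0.65). At day 7, 3 of 8 differed, where 6.29% of genes passed. Fcgr2b was 0.62 ± 0.17 higher in TLR (adjusted p = 0.0399), while Siglecg was 0.56 ± 0.16 lower (adjusted p = 0.0433) and Cd72 0.83 ± 0.21 lower (adjusted p = 0.0229). The groups did not overlap for any of the 3. Each call was lost on leaving out some 1 library. For Siglecg this was any of the 6, with differences from −0.49 to −0.60, and also GC and length correction (−0.48). For Fcgr2b it was any but BCR replicate 1, from 0.52 to 0.70, and scaled to total recovered reads it was 0.19 (adjusted p = 0.6). For Cd72 it was TLR replicate 1 (−0.74) or 3 (−0.86) or BCR replicate 1 (−0.87) or 2 (−0.71), and after GC and length correction it was −0.55 and did not pass. At day 10, 2 of 8 differed, where 14.3% of genes passed. Cd72 was 0.70 ± 0.21 lower in TLR (adjusted p = 0.0317), and Pirb 1.92 ± 0.55 lower (adjusted p = 0.0274). Without BCR replicates 1 and 2, which held the most macrophage marker reads, these were −0.32 and −0.21 and did not pass. Singly, the Cd72 call was lost without any 1 of the 3 TLR libraries (−0.57 to −0.78), BCR replicate 1 (−0.79) or BCR replicate 2 (−0.43). The Pirb call was lost without TLR replicate 1 (−1.46) or 3 (−1.70) or BCR replicate 1 (−1.42) or 2 (−1.57). Fcgr2b at day 10 (−0.33) did not pass, but did without BCR replicate 3 (−0.53) and, scaled to total recovered reads, at −0.95, where Siglecg (−0.72) passed as well. Cd72 at day 10 was −0.78 after GC and length correction and did not pass. The change of each member from day to day was also compared between cultures. No member passed by limma for day 4 to day 7 or for day 7 to day 10, where 1.7% and 0.067% of all genes did, and 2 and 1 members had an unadjusted p below 0.05. In voom on recovered reads 1 and 0 members passed. Without BCR replicate 3 of day 10, Fcgr2b (−1.15) and Pirb (−2.39) passed in the later step.

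Wild type cells in LPS differed from those on feeders in what became of Fcgr2b. It read 11.81, 11.56 and 11.81 at day 4 and 12.31, 12.20 and 12.05 at day 7, around its day 0 level, and the difference of day 4 from day 0 was −0.08 ± 0.30 (adjusted p = 0.865). Of the 8 members 5 fell by day 4, where 58.1% of all genes passed and 30.8% of all genes passed as lower. Cd22 fell by 2.64 ± 0.27. The other differences were −2.50 ± 0.18 for Siglecg, −1.70 ± 0.22 for Cd72, −2.70 ± 0.25 for Pirb and −1.51 ± 0.32 for Ptpn6. Inpp5d (−0.23 ± 0.19) and Cd5 (−0.42 ± 0.24) did not pass, and after GC and length correction both did, at −0.23 and −0.85. These libraries differ from those of day 0 in sex, age and depth, which cannot be told apart from culture. From day 4 to day 7 in LPS 2 of 8 rose, where 8.44% of genes passed. Pirb went from 8.27, 8.12 and 8.52 to 9.87, 9.36 and 9.01, a rise of 1.11 ± 0.25 (adjusted p = 0.00429), which was 0.84 and did not pass when scaled to total recovered reads. Cd5 rose by 0.76 ± 0.24 (adjusted p = 0.0422), but not without any 1 of the day 4 libraries (0.67 to 0.83) or day 7 replicate 2 (0.71) or 3 (0.63). Siglecg (0.41) passed without day 7 replicate 3 (0.63). Macrophage marker sums were 160 to 165 RPM at day 4 and 242 to 314 at day 7.

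**Figure D3:**
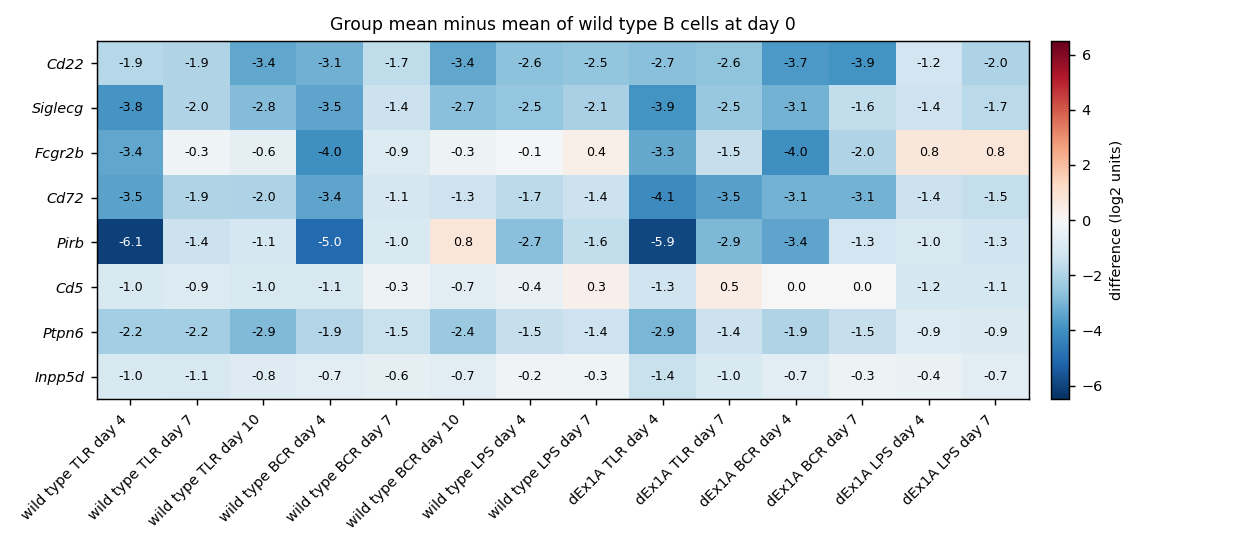
Group mean less the mean of wild type B cells at day 0 for the 8 genes (rows) in 14 culture groups (columns), in log2 units, red higher and blue lower. Pirb at day 4 in wild type TLR lies at −6.08, and Fcgr2b is pale in the 4 LPS columns; dEx1A and LPS columns differ from day 0 also in sex and age.

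The effect of losing exon 1A was asked in each culture and day, and LPS is the culture in which genotypes match in sex and age. At day 4 in LPS, Cd22 read 13.52, 13.16 and 13.65 in dEx1A and 12.13, 11.89 and 12.10 in wild type. Siglecg read 12.36, 12.08 and 12.42 against 11.16, 11.04 and 11.24, and Pirb 10.18, 9.5 and 10.22 against 8.27, 8.12 and 8.52. Every dEx1A library lay above every wild type library for the 3 receptors. Plasma cell markers summed to 1030 to 2020 RPM in dEx1A against 5920 to 6180 in wild type, with 4 of the 5 lower. Macrophage markers summed to 340, 251 and 303 RPM against 160 to 165, but of the 13 only 2 passed as higher and 2 as lower. The dEx1A library with the lowest sum was also the lowest in Pirb. The part of these markers in the differences was not tested here. The differences were 1.40 ± 0.27 for Cd22 (adjusted p = 0.000259), 1.14 ± 0.18 for Siglecg (adjusted p = 1.47e-05) and 1.66 ± 0.25 for Pirb (adjusted p = 9.57e-06). Fcgr2b was 0.84 ± 0.30 higher (adjusted p = 0.041), a call lost without any 1 of the wild type libraries (0.75 to 0.88) or dEx1A replicate 1 (0.71) or 3 (0.77). Cd5 was 0.75 ± 0.24 lower (adjusted p = 0.0198), a call lost without wild type replicate 2 (−0.73) or 3 (−0.68) or dEx1A replicate 1 (−0.71) or 3 (−0.69). After GC and length correction Fcgr2b was 0.61 and Cd5 −0.18, neither of which passed, and Cd72 (0.85) and Ptpn6 (0.96) passed as higher. In all 5 of 8 members passed, where 24.4% of all genes did. The wild type libraries of this day lie below 20 M reads and the dEx1A ones above. At day 7, where depth matches too, Cd5 alone passed, at 4.21, 4.41 and 4.62 in dEx1A against 5.55, 6.00 and 6.15, or −1.49 ± 0.24 (adjusted p = 4.31e-05), on 4 to 9 reads against 23 to 36. It was 1 of 8 members where 7.1% of genes passed. Replicate 2 of dEx1A was the lowest of its group in 5 of the 6 receptors at that day, Cd5 excepted, and without it Cd22 (0.94), Siglecg (0.63) and Pirb (0.76) passed as higher. After GC and length correction Ptpn6 (0.48) passed as higher and Inpp5d (−0.40) as lower.

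In TLR no member passed by limma at day 4, where 7.26% of all genes did and 4 members had an unadjusted p below 0.05. In voom on recovered reads Cd22 passed, at −0.83. Cd22 also passed without wild type replicate 3 (−1.0) or dEx1A replicate 2 (−0.97). Without the first, Cd72 (−0.73), Ptpn6 (−1.12) and Inpp5d (−0.65) passed, and without the second Ptpn6 (−1.16) and Inpp5d (−0.68). At day 7, 7 of 8 members passed, where 55.0% of all genes did. The dEx1A libraries of that day lay below 20 M reads and the wild type ones above. Their GC offsets were 0.86 to 1.56 against −1.17 to −0.17, and genotype cannot be told apart from depth and GC offset there. Cd72 read 9.19, 9.31 and 9.07 in dEx1A against 10.59, 10.92 and 10.83, Pirb 8.19, 7.88 and 8.14 against 9.47, 9.68 and 9.68, and Fcgr2b 10.50, 10.04 and 10.40 against 11.70, 11.34 and 11.48. None of these groups overlapped. Cd72 was lower by 1.59 ± 0.22 (adjusted p = 1.16e-06), Pirb by 1.54 ± 0.25 (adjusted p = 8.77e-06) and Fcgr2b by 1.19 ± 0.30 (adjusted p = 0.00133). Cd22 and Siglecg were lower by 0.70 ± 0.27 and 0.50 ± 0.18. Scaled to total recovered reads these were −0.49 and −0.29 and did not pass. Of the 7 B cell markers 4 were lower too (median −1.15). Plasma cell markers summed to 15000 to 16400 RPM against 36100 to 53100, but of these 5 genes 2 passed as lower and 1 as higher (median −0.17). The part of both lists in these differences was not tested. The Cd22 call was lost without wild type replicate 2 (−0.58) or 3 (−0.69) or dEx1A replicate 3 (−0.62), and the Siglecg call without the same libraries (−0.46, −0.46 and −0.35). Cd5 (1.38 ± 0.24) and Ptpn6 (0.81 ± 0.32) were higher, but were 0.22 and −0.11 after GC and length correction and did not pass. The 5 B1 markers summed to 870 to 1030 RPM in that group, against 262 to 274 in wild type TLR at day 7. Of the 5, 3 passed as higher and 1 as lower (median 0.67), and their part in the Cd5 difference was not tested. In dEx1A LPS at day 7, where Cd5 had 4 to 9 reads, they summed to 736 to 822. Inpp5d, at 0.06 ± 0.19, did not pass, and was −0.38 and passed as lower after that correction. Without wild type replicate 1 or 3 or dEx1A replicate 2 or 3, Ptpn6 ran from 0.57 to 0.84 and did not pass.

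In BCR 2 members passed at day 4, where 1.86% of all genes did. Pirb read 7.31, 7.71 and 7.78 in dEx1A against 5.92, 6.06 and 5.92, higher by 1.63 ± 0.25 (adjusted p = 0.000111). Macrophage markers summed to 123, 236 and 218 RPM in these dEx1A libraries against 100, 134 and 89.8 in wild type. None of the 13 passed singly, and their part in the Pirb difference was not tested. Cd5 was higher by 1.08 ± 0.24 (adjusted p = 0.00865), on 33 to 100 reads against 11 to 16, a call lost without wild type replicate 3 (0.96) or dEx1A replicate 2 (0.78). At day 7, 3 members passed, all of them lower, where 50.9% of all genes passed in either direction. Depth and GC offset again went with genotype, the offsets being 0.69 to 1.55 in dEx1A and −1.03 to 0.33 in wild type. Cd22 read 11.28, 10.49 and 10.61 against 12.81, 13.04 and 13.19, and Cd72 10.31, 9.22 and 9.40 against 11.53, 11.84 and 11.46. Neither overlapped, with differences of −2.22 ± 0.27 (adjusted p = 8.01e-08) and −1.97 ± 0.22 (adjusted p = 2.39e-08). Of the 7 B cell markers 4 were lower as well (median −0.97), and plasma cell markers summed to 2960 to 5080 RPM against 19700 to 24700. Fcgr2b was lower by 1.07 ± 0.30 (adjusted p = 0.00398), with dEx1A libraries spread over 9.83, 8.62 and 11.02 against 11.10, 10.85 and 10.72. Its order followed the macrophage sums of 780, 286 and 2240 RPM, and without dEx1A replicate 2 it was −0.47 and did not pass. Feeder fibroblast markers summed to 282 to 429 RPM in this group, against 21.4 to 26.9 in wild type at the same day. Only 1 of the 7 tested passed as higher and 0 as lower, with a median of −0.17. Thy1, which is on that list, read 12.72, 12.73 and 12.19 against 7.95, 7.65 and 7.54, so the sum does not stand for the list as a whole. The part of these markers in the differences was not tested. After GC and length correction Siglecg (−0.47) and Ptpn6 (−0.73) also passed as lower.

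**Figure D4:**
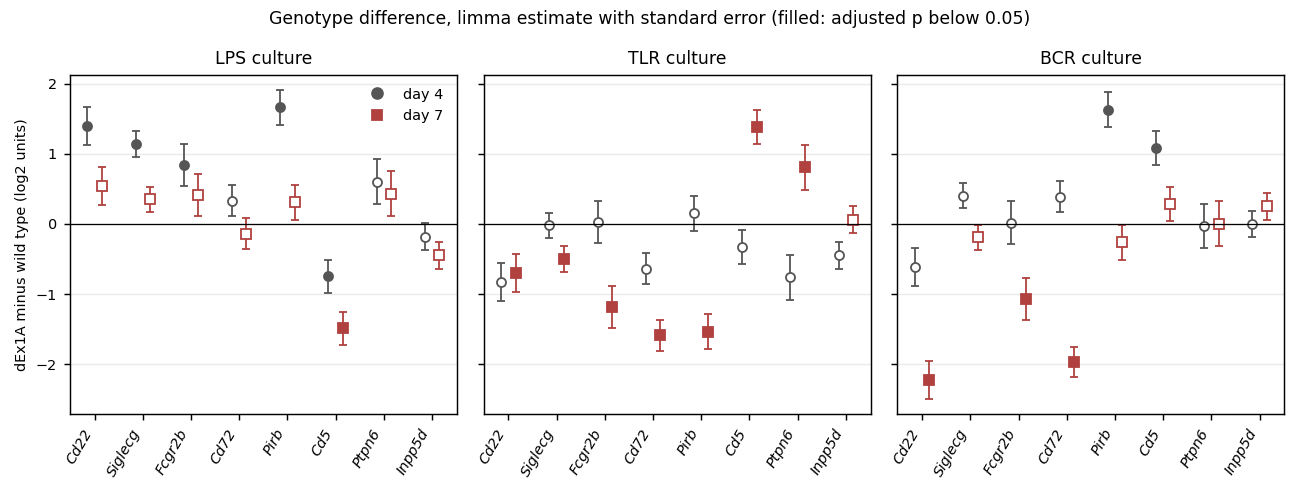
Difference of dEx1A from wild type (y axis, log2 units, limma estimate with its standard error) for each gene at days 4 and 7 of the 3 culture systems; filled symbols passed at an adjusted p below 0.05. Cd22 lies at 1.40 in LPS at day 4 and at −2.22 in BCR at day 7.

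The genotype difference changed from day 4 to day 7 for 1 of 8 members in LPS, 5 in TLR and 4 in BCR, where 5.49%, 49.5% and 33.9% of all genes passed. Pirb was in each, by −1.35 ± 0.35 in LPS, −1.69 ± 0.35 in TLR and −1.90 ± 0.35 in BCR. Cd72 was in both feeder cultures, by −0.95 ± 0.32 in TLR and −2.36 ± 0.32 in BCR, and so was Fcgr2b, by −1.23 ± 0.43 and −1.09 ± 0.43. Cd22 was in BCR by −1.61 ± 0.38, and Cd5 (1.71 ± 0.34) and Ptpn6 (1.57 ± 0.45) in TLR. After GC and length correction Fcgr2b was −0.54 in TLR and −0.78 in BCR, Cd5 in TLR 0.07 and Ptpn6 in TLR 0.35, and none of these 4 passed. Scaled to total recovered reads, Fcgr2b (−0.88 in TLR, −0.68 in BCR) and Cd72 in TLR (−0.62) did not pass. The Fcgr2b call in BCR was lost without any 1 of 9 of the 12 libraries (−0.49 without dEx1A day 7 replicate 2, and −0.98 to −1.11 otherwise), and held without wild type day 4 replicate 3, wild type day 7 replicate 3 or dEx1A day 7 replicate 3. Siglecg passed in LPS without wild type day 7 replicate 3 (−1.0) or dEx1A day 7 replicate 1 (−0.95) or 3 (−0.90). Inpp5d passed in TLR without wild type day 4 replicate 3 (0.72) or dEx1A day 4 replicate 2 (0.74), and Cd5 in BCR without dEx1A replicate 1 of day 4 (−1.01) or day 7 (−1.0). The LPS call of Pirb was lost without wild type day 4 replicate 2 (−1.26), dEx1A day 4 replicate 1 (−1.24) or 3 (−1.22), wild type day 7 replicate 1 (−1.12) or dEx1A day 7 replicate 2 (−0.90). In dEx1A itself Pirb rose from day 4 to day 7 by 3.00 ± 0.25 in TLR and 2.14 ± 0.25 in BCR. In LPS it went from 10.18, 9.5 and 10.22 to 10.31, 8.83 and 10.04 (−0.24 ± 0.25), which did not pass. Of the 8 members, 7 rose in dEx1A TLR over that step, where 62.2% of genes passed, 29.4% higher. In BCR 3 rose, where 54.0% of genes passed, 26.3% higher. In LPS 1 fell, where 34.2% passed. The 1 in LPS was Cd22 (−0.77 ± 0.27), which did not pass without day 4 replicate 1 (−0.73) or 3 (−0.66) or day 7 replicate 2 (−0.36), and there Siglecg passed without day 7 replicate 1 (−0.54). In BCR they were Siglecg (1.45 ± 0.18), Fcgr2b (1.99 ± 0.30) and Pirb, and Inpp5d passed without day 4 replicate 2 (0.52). In TLR every member but Cd22 passed, of which Cd72 (0.58), Inpp5d (0.44) and Cd5 (1.78) gave −0.89, −0.29 and 0.25 after GC and length correction. Inpp5d there did not pass without day 4 replicate 1 (0.37) or 3 (0.29) or day 7 replicate 2 (0.41) or 3 (0.40). Cd72 there did not pass without day 4 replicate 3 (0.48) or day 7 replicate 1 (0.58) or 2 (0.52).

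Within dEx1A the cultures come from mice of the same sex and age. LPS cells at day 4 held more of 7 members than TLR cells, where 45.4% of genes passed, 21.1% higher. Pirb was higher by 4.90 ± 0.25, Fcgr2b by 4.1 ± 0.30, Cd72 by 2.75 ± 0.22 and Siglecg by 2.50 ± 0.18, and none of these groups overlapped. At day 7, 4 members were higher and Cd5 lower, where 17.4% passed, with Fcgr2b at 12.85, 12.23 and 12.72 in LPS against 10.50, 10.04 and 10.40 in TLR (2.29 ± 0.30). Without LPS day 7 replicate 2, Cd22 passed as well (1.02). Between TLR and BCR in dEx1A at day 4, Cd22 was 1.03 ± 0.27 higher in TLR while 6 members were lower, where 16.7% of genes passed. Pirb was the farthest apart of these, at 4.91, 5.19 and 5.11 in TLR against 7.31, 7.71 and 7.78 in BCR (−2.53 ± 0.25). Of the 6, Ptpn6 (−1.01 ± 0.32) did not pass without TLR replicate 1 (−0.85) or 3 (−0.77) or BCR replicate 2 (−0.78). Inpp5d (−0.72 ± 0.19) did not pass without TLR replicate 3 (−0.57) or BCR replicate 2 (−0.59). At day 7 Cd22 was again higher in TLR, by 1.26 ± 0.27, and Siglecg, Pirb and Inpp5d lower, where 31.6% passed. Scaled to total recovered reads that Cd22 difference was 0.71 and did not pass. Leaving out BCR day 7 replicate 3 added Fcgr2b (1.09), replicate 2 Cd72 (−0.66) and replicate 1 Cd5 (0.71).

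Other genes of the pathway were taken from lists. Their counts at day 4 stand against 48.5% of all genes called in TLR, 23.5% as lower, and 50.7% in BCR, 24.5% as lower. Of 10 genes for ligands and their synthesis, 4 rose and 3 fell at day 4 in TLR, with a median of −0.20. Cmah, which makes the sialic acid that mouse CD22 prefers, fell by 2.54 ± 0.30 and rose by 2.69 ± 0.30 to day 7. Sema4d, the ligand of CD72, fell by 1.65 ± 0.20 and rose by 1.19 ± 0.20. St6gal1, which links sialic acid for CD22, rose by 1.59 ± 0.19 to day 7 and fell by 1.35 ± 0.19 to day 10. In BCR 1 rose and 5 fell at day 4 (median −0.49), among them H2-D1, an MHC class I heavy chain of the kind PIR-B binds (−1.66 ± 0.36). To day 7, 6 of the 10 rose in TLR and 6 in BCR, with medians of 0.94 and 0.68 against −0.06 and 0.00 over all genes. In that step 36.5% of all genes passed in TLR, 17.8% higher, and 30.6% in BCR, 15.3% higher.

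Of 15 other inhibitory receptors, 9 fell and 3 rose at day 4 in TLR and in BCR alike. Pecam1 (−4.49 ± 0.22 in TLR, −5.40 ± 0.22 in BCR), Clec12a and Fcrl5 were among the farthest, while Tigit rose by 3.74 ± 0.21 in TLR and Cd200r1 by 3.61 ± 0.72 in BCR. Fcrl5, an Fc receptor-like protein of B cells, then rose to day 7 by 2.46 ± 0.27 in TLR and 2.78 ± 0.27 in BCR. From day 7 to day 10 in BCR 6 of the 15 rose and 4 fell, where 16.7% of all genes passed. Those with the largest rises were Cd300a (4.12 ± 0.86), Lair1 (3.84 ± 0.80) and Havcr2 (3.13 ± 0.79), receptors also carried by myeloid cells. In the same step 12 of the 13 macrophage markers rose. Lyz2, the lysozyme of those cells, read 16.66, 16.39 and 13.50 at day 10. Their part in the rise was not tested.

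Of 20 adaptors and enzymes of inhibition, 12 fell and 2 rose at day 4 in TLR, and 11 fell and 2 rose in BCR. Cblb, a ubiquitin ligase that restrains receptor signalling, fell by 4.05 ± 0.24 and 4.31 ± 0.24. Dok3, an adaptor that partners SHIP-1, fell by 3.5 ± 0.45 and 3.90 ± 0.45 and rose to day 7 by 2.37 ± 0.45 and 3.02 ± 0.45. Of 20 genes of activation, 16 fell at day 4 in each culture and 1 rose in TLR, with medians of −1.32 and −1.28. Syk, the kinase that carries the B cell receptor signal, changed by −3.51 ± 0.20 in TLR and −4.36 ± 0.20 in BCR, then rose to day 7 by 2.28 ± 0.20 and 2.90 ± 0.20. Cr2, a complement receptor, fell by 6.65 ± 0.38 and 7.65 ± 0.38. In BCR 13 of the 20 rose to day 7 and none of the others passed as lower, while 9 rose and 1 fell in TLR. Among all genes 30.6% passed over that step in BCR, 15.3% higher, and 36.5% in TLR, 17.8% higher. In dEx1A BCR at day 7, 8 of these 20 were lower than in wild type and 1 higher, or 9 of 20 called where 50.9% of all genes were. They included Cr2 (−3.45 ± 0.27), Prkcb (−2.61 ± 0.14) and Syk (−1.79 ± 0.20). In LPS at day 4, 5 of the 15 other inhibitory receptors were higher in dEx1A and 1 lower, among them Fcrl5 (2.44 ± 0.22). Of the 20 activation genes 2 were higher and 4 lower there, and among all genes 24.4% were called. The lists were not tested against each other.

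The genes whose 15 group means ran most like each member's were sought among 20616. These correlations describe groups that share libraries and depth sets, with no test. Fcgr2b ran most like Syk (r = 0.97), and then Fcrl5 (0.95) and Gm10522 (0.93), the last lying 5397 bases from it on the other strand. Cd72 ran most like Cblb (0.97), Ms4a4c (0.96) and Gm15448 (0.95). Siglecg ran most like Tlr9, the sensor of unmethylated DNA, and Cd2 (0.95 each), and Spns2 (0.94). Pirb ran with its neighbours on chromosome 7, Pira2 (0.99), Gm14548 (0.97) and Gm15922 (0.96). Cd22 ran most like Ffar1 (0.97), which lies 3838 bases from it on the same strand (chr7:30857390-30861564), followed by Gm14834 (0.92) and Gm49338 (0.91). Ptpn6 followed Prkab1 and the Src family kinase gene Blk (0.93 each) and Glyctk (0.92). Inpp5d followed Naif1 and Oxa1l (0.92 each) and Trp53rka (0.90), and Cd5 followed Gm12854 (0.81), Ube2d-ps (0.80) and Ppp1r3f (0.79). Among the members r was 0.82 for Fcgr2b with Cd72, Siglecg with Ptpn6 and Cd72 with Pirb, but 0.19 for Cd22 with Pirb and −0.07 for Cd22 with Cd5.

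By GENCODE M21 on GRCm38, the members lie at chr7:30865402-30880342 (Cd22, ENSMUSG00000030577.14, minus strand), chr7:43408204-43418358 (Siglecg, ENSMUSG00000030468.12, plus), chr1:170958617-170976547 (Fcgr2b, ENSMUSG00000026656.15, minus) and chr4:43446462-43454628 (Cd72, ENSMUSG00000028459.11, minus). The others lie at chr7:3711409-3720391 (Pirb, ENSMUSG00000058818.13, minus), chr19:10717116-10739002 (Cd5, ENSMUSG00000024669.7, minus), chr6:124720707-124738714 (Ptpn6, ENSMUSG00000004266.15, minus) and chr1:87620312-87720507 (Inpp5d, ENSMUSG00000026288.14, plus). Antisense genes overlap Cd22 (Gm29439), Fcgr2b (Gm38204) and Ptpn6 (Gm20531), and Tesk1 on the opposite strand overlaps Cd72 by 1603 bases. The kit marks strand, but the strand setting of the counting is not given in the sources used here, so reads of these pairs may not be cleanly separated.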

How the data were processed

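The kit was TruSeq Stranded Total RNA, and single reads of 76 bases were sequenced, per the labels' protocols. The authors deposited 2 tables of log2 variance-stabilised values, one of wild type libraries and one of both genotypes, whose 15 shared columns are identical. The submitters' processing notes name DESeq2 1.22.2, STAR 2.6.0c, RSEM 1.3.0 and Trim Galore 0.6.0 among their tools, without roles. Which counts entered the transformation is not given in the sources used here.

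Reads were recovered by inverting the transformation. Values below 20 reads came out whole, within 0.1, in 95.0 to 100.0% of cases. The inversion was itself fitted by taking the lowest 8 distinct values of each library as whole reads. This share is therefore no independent check of the recovered reads. All 31 comparisons used limma 3.58.1 in R 4.3.3 on the log2 values, with group means, a trended prior and Benjamini-Hochberg adjustment within each comparison. A gene was kept when it lay at least 1 above the floor of 3.04 in at least 3 libraries, leaving 19398 genes for wild type feeder cultures and 20279 for both genotypes. The fit was tested on simulated data. Wild type feeder comparisons came from the first table and all with LPS or dEx1A from the second, so their standard errors differ. Of 45 pairs of libraries of a group none agreed within counting noise, with chi-square per gene of 11.29 or more. Promoters are from RefSeq.

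The alternatives were no filter, a stricter filter, a fit on the groups compared, voom on recovered reads, correction for GC content and length, a replicate block, and each library left out. Scaling to total recovered reads, and leaving out BCR replicates 1 and 2 of day 10 together, were added after seeing the data. The 8 members and all gene lists were chosen with earlier results of these data known. All members are named, with up to 4 genes a list and comparison by size of change, and for each member the 3 genes of highest correlation.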

Additional observations from a re-analysis of the deposited data

Results flagged for a closer look

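In 10 cases the difference between dEx1A and wild type was not the same at day 7 as at day 4, by an interaction term in limma. In LPS this held for Pirb (−1.35). In TLR it held for Fcgr2b (−1.23), Cd72 (−0.95), Pirb (−1.69), Cd5 (1.71) and Ptpn6 (1.57). In BCR it held for Cd22 (−1.61), Fcgr2b (−1.09), Cd72 (−2.36) and Pirb (−1.90). These were 1, 5 and 4 of 8 members in LPS, TLR and BCR, where 5.49%, 49.5% and 33.9% of all genes passed. After GC and length correction Fcgr2b did not pass in TLR or BCR, nor did Cd5 and Ptpn6 in TLR. Negative values mean that the difference moved down from day 4 to day 7. In TLR and BCR the dEx1A libraries of day 7 also differ from the other 3 groups of the comparison in depth and GC offset, which cannot be told apart from this change.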

How the results depend on the processing

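The counts of members called changed by over 1.5 times in these cases. Fitted on just the groups compared, they were 0 instead of 2 for TLR day 10 against day 7, 0 instead of 4 for BCR, 0 instead of 2 for TLR against BCR at day 10, 1 instead of 0 for the day 4 to day 7 step between cultures, 0 instead of 2 for LPS day 7 against day 4, 1 instead of 2 for genotype in BCR at day 4, 0 instead of 1 for dEx1A LPS day 7 against day 4, 0 instead of 1 for genotype by day in LPS and 3 instead of 5 for dEx1A LPS against TLR at day 7. Without a filter they were 1 instead of 3 for TLR against BCR at day 7 and 1 instead of 2 for LPS day 7. With a stricter filter they were 1 for the step between cultures, 1 instead of 0 for genotype in TLR at day 4 and 2 instead of 1 for genotype by day in LPS. In voom they were 1 instead of 2 for TLR against BCR at day 4, 1 for the step, 1 for LPS day 7 and 1 for genotype in TLR at day 4. Scaled to total recovered reads they were 4 for TLR day 10 against day 7, 1 for TLR against BCR at day 4, 4 at day 10, 1 for the step, 0 for LPS day 7, 1 for genotype in TLR at day 4 and 3 for dEx1A LPS day 7 against day 4. After GC and length correction they were 1 for TLR against BCR at day 10, 1 for the step, 1 for LPS day 7, 3 instead of 1 for genotype in LPS at day 7, 5 instead of 3 for genotype in BCR at day 7, 5 for dEx1A LPS day 7 against day 4, 6 instead of 3 for dEx1A BCR, 4 for genotype by day in LPS, 3 instead of 5 in TLR and 8 for dEx1A LPS against TLR at day 7. Without BCR replicates 1 and 2 of day 10, none differed between TLR and BCR at day 10. The cause was not tested.

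Leaving out 1 library gave 2 to 4 members for BCR day 10 against day 7, 1 to 2, 0 to 1 and 0 to 3 for TLR against BCR at days 4, 7 and 10, 0 to 1 and 0 to 2 for the steps, 1 to 2 for LPS day 7, 3 to 5 and 1 to 4 for genotype in LPS at days 4 and 7, 0 to 4 and 4 to 7 in TLR, 1 to 2 and 2 to 3 in BCR, 0 to 2 for dEx1A LPS day 7 against day 4 and 0 to 2 for genotype by day in LPS. It gave 7 to 8 for BCR day 4 against day 0, 4 to 6 for BCR day 10, 5 to 6 for BCR day 7 against day 4, 7 to 8 for TLR day 10 against day 0, 5 to 7 and 3 to 4 for dEx1A TLR and BCR day 7 against day 4, 5 to 6 and 3 to 4 for genotype by day in TLR and BCR, 5 to 7 and 4 to 5 for dEx1A TLR against BCR at days 4 and 7, and 5 to 6 for dEx1A LPS against TLR at day 7.

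GC and length correction reversed Ptpn6 (−0.11) and Inpp5d (−0.38) for genotype in TLR at day 7, Cd72 (−0.89) and Inpp5d (−0.29) in dEx1A TLR day 7 against day 4, Ptpn6 in dEx1A BCR (−0.38) and in genotype by day in BCR (−0.72), and Cd5 between dEx1A LPS and TLR at day 4 (−0.60). Scaling to total reads reversed Inpp5d in dEx1A TLR day 7 against day 4 (−0.10). Of 248 values of members, the same side and direction held for 240 without a filter, 221 with only the groups compared, 240 in voom, 215 with total scaling and 195 after GC and length correction. The replicate block kept 247, the exception being Cd22 for genotype in TLR at day 4, which passed (adjusted p = 0.0446). The stricter filter, at 3 above the floor, left 235 values, of which 231 held. It dropped Cd5 from all wild type feeder comparisons, so no Cd5 call there has a counterpart under it. Same-numbered libraries deviated together, with a correlation above 0.1, in 29 of 63 wild type male pairs, 2 of 3 wild type LPS pairs and 24 of 45 dEx1A pairs. Differently numbered ones did in 55 of 126, 0 of 6 and 40 of 90. Median correlations of same and different numbers were 0.02 and −0.01, 0.17 and −0.07, and 0.2 and −0.1. The main fit did not pair the samples by number, although same numbers stood higher in wild type LPS and dEx1A.

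Total scaling moved the share of calls that were higher from 48.7 to 13.8% for TLR day 7 against day 4, from 50.1 to 25.1% for BCR, from 49.8 to 11.8% for TLR day 10 against day 0 and from 56.4 to 27.0% for BCR. It shifted the median gene by −0.89, −0.44, −1.46 and −0.84 log2 units in these 4 comparisons. Counts below 20 reads limit Cd5.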
